A study of Mus musculus with 8 samples.

Results

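The loss of *Arid1a* was described in prostate tumors of mice that received vehicle, as the difference between *Arid1a* KO and WT tumors across all genes. The comparison used 4 of the 8 samples of the series, 2 *Arid1a* KO and 2 WT, chosen by the genotype and treatment in their labels. Cells of the mouse prostate cancer line Myc-CaP, which grows from a *Myc* transgene, carried an empty vector (EV, called WT here) or a guide RNA against *Arid1a* (KO) and were grown under the skin of male FVB mice 6 weeks of age. From day 16 the hosts were given corn oil by gavage every day for 2 weeks. Cells were then sorted as EpCAM-positive and CD45-negative, and their RNA was sequenced. In the other 4 samples, 2 of each genotype, the hosts received JSH-23, an inhibitor of the nuclear entry of the NF-κB subunit p65. All 8 samples came from the same *Myc*-driven line, and whether the KO cells were 1 clone is not given in the sources used here. Nor is it stated whether the 2 samples of a group came from separate mice, so the p-values measure the spread between these samples, which may be technical.

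ARID1A is a DNA-binding subunit of the BAF form of SWI/SNF, which holds either it or ARID1B. SWI/SNF is a complex that uses ATP to slide or evict nucleosomes. BAF acts mostly at enhancers, where it keeps DNA open for transcription factors such as AP-1. The gene is often mutated in human cancers, and its loss is known to change many genes in both directions.

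Total counts were between 16650998 and 20066676 in the 4 samples, and a count of 3, taken as the lowest level told from 0, was between 0.15 and 0.18 CPM (counts scaled to a common library size). The counts of the 2 samples of a group differed by a little more than sampling noise, as the chi-square divided by its degrees of freedom was 1.5 in WT and 1.46 in KO. In WT replicate 2, 6 genes were over 4-fold above WT replicate 1, among them the smooth muscle genes *Acta2*, *Myh11* and *Tagln*, and none of the 6 was called between genotypes. Between the 2 KO samples no gene did. Both counts took genes with 20 counts or more and added 0.3 CPM to each level. The positive marker of the sort was almost absent from the RNA, so the RNA did not bear out that side of the sort. *Epcam* had 0 and 1 counts in WT and 0 and 4 in KO samples, and the adherens junction gene *Cdh1* had between 5 and 19 counts. *Krt18* had between 5 and 11 counts. Its luminal partner *Krt8* was plentiful, with 869 to 1006 counts in WT and 2038 to 2308 counts in KO samples. *Ptprc*, which encodes CD45, had between 3 and 7 counts.

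*Arid1a*, which lies at chr4:133679008-133756769 of GRCm38, had 156 and 162 CPM in WT and 103 and 106 CPM in KO tumors. Both KO samples were below both WT samples, and the log2 fold change was -0.60 (standard error 0.036, adjusted p = 1.39e-23). The change was close to the 1.5-fold limit. It fell short of that limit with library sizes alone (-0.5767), with genes of at least 10 CPM (-0.5826), with limma on log2(TPM + 1) (-0.5805), without WT replicate 2 (-0.5805) and without KO replicate 1 (-0.5845). Of 26 SWI/SNF subunit genes tested, 1 was called lower, *Arid1a*, and none was called higher. With library sizes alone, without WT replicate 2 or without KO replicate 1, 1 subunit gene was called higher and none lower. The ATPase gene *Smarca4* had 243 and 242 CPM in WT and 248 and 245 CPM in KO tumors (log2 fold change 0.02). None of 26 Polycomb genes, which encode repressors that oppose SWI/SNF, was called.

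Of 13921 genes tested, the KO tumors had higher levels of 1041 (7.48%) and lower levels of 719 (5.16%), at an adjusted p under 0.05 and at least 1.5-fold. The groups did not overlap for 1040 of the higher and 716 of the lower genes, nor for 10300 of all 13921 genes tested (74.0%), so this adds little to the calls. Among the higher genes 506 rose at least 2-fold and 132 at least 4-fold, and among the lower genes 275 and 57 fell by as much. Both sets held many weakly expressed genes: the median level was 4.39 CPM for the higher and 8.43 CPM for the lower genes, beside 24.96 CPM over all genes tested. Long noncoding RNAs made up 181 of the higher and 116 of the lower genes. With the tests limited to genes of at least 10 CPM, the counts were 371 and 317, and when the spread between samples, estimated here at 1.61% as a coefficient of variation, was set to 0.2 (20%) they were 397 and 217.

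**Figure D1:**
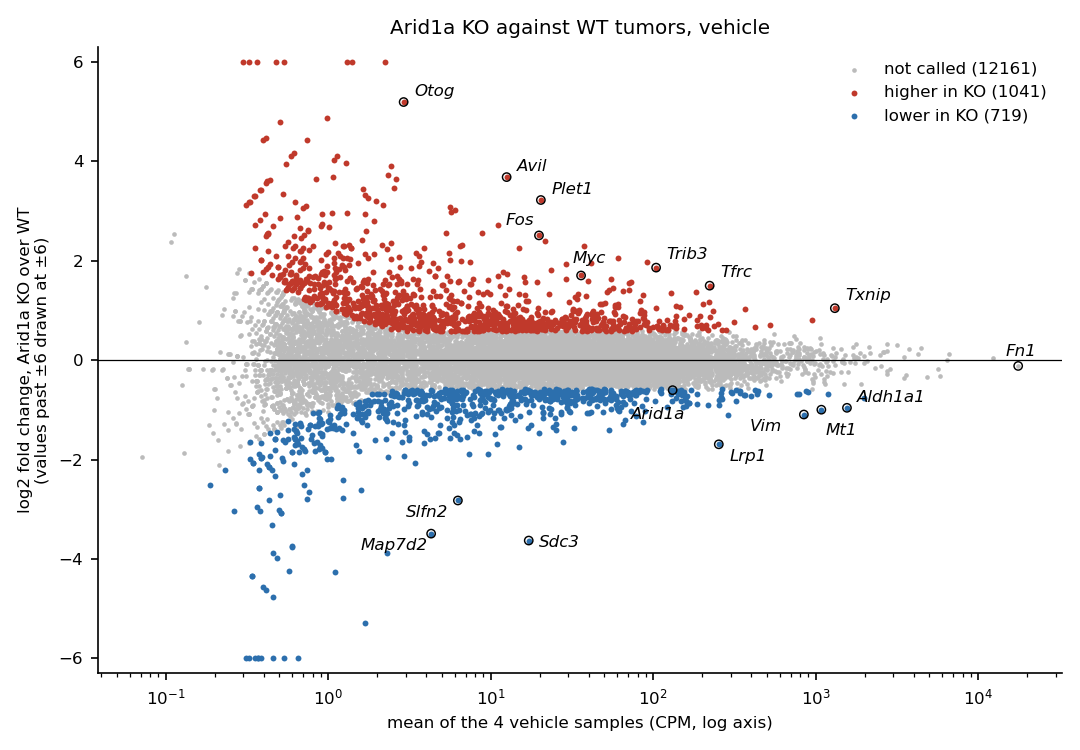
Each point is a tested gene, with the mean level of the 4 vehicle samples in CPM on a log axis and the log2 fold change of *Arid1a* KO over WT on the other axis. The 1041 genes called higher and 719 called lower lie mostly among weakly expressed genes, and *Txnip*, *Tfrc*, *Lrp1*, *Vim*, *Mt1* and *Aldh1a1* are abundant genes among them.

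The largest rises, among genes that averaged 5 CPM or more in the higher group, were not in 1 pathway. *Otog*, for a glycoprotein of the inner ear, went from 5 and 0 counts in WT to 6.3 and 5.04 CPM in KO tumors (log2 fold change 5.19, standard error 0.44, adjusted p = 1.66e-16). *Avil*, for the actin-severing protein advillin, had 1.37 and 2.23 CPM in WT and 23.2 CPM in both KO samples, a log2 fold change of 3.68. *Plet1*, a surface protein of placental and hair follicle progenitors, had 4.33 and 3.53 CPM in WT and 36.7 and 36.8 CPM in KO tumors. The leading genes were chosen for a large change and non-overlapping samples, so the gap between their KO and WT samples follows from that choice. The other leading risers were the clotting factor gene *F5* (3.08 on the log2 scale), *Sspo* (3.03), *Sh2d6* (2.98), the calcium pump gene *Atp2a3* (2.72), the cholesterol esterifying enzyme gene *Soat2* (2.55), *Slurp1* (2.55) and *Fos* (2.51). *Avil* and *Sh2d6* are both known from tuft cells, a chemosensory epithelial type.

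The largest falls included genes of the cell surface and of endocytosis. *Sdc3*, for the heparan sulfate proteoglycan syndecan 3, had 30.2 and 33.1 CPM in WT and 2.71 and 2.42 CPM in KO tumors (log2 fold change -3.63, standard error 0.13, adjusted p = 2.38e-36). *Lrp1*, an endocytic receptor for lipoproteins and proteases, had a mean of 386 ± 7.98 CPM in WT and 120 ± 2.37 CPM in KO tumors (SD, n = 2 each), a log2 fold change of -1.69. These genes too were chosen for large falls and non-overlapping samples, so the gap between genotypes follows from that choice. *Map7d2* (-3.49), *Slfn2* (-2.82), *Sardh* (-1.89), *Saa3* (-1.88), *Nol4l* (-1.75), *Fgd3* (-1.68), *Zfp462* (-1.66) and the caveolar gene *Cavin2* (-1.65) made up the rest of the 10. *Saa3* was not called with DESeq2 or with limma on TPM values. *Saa3* and *Slfn2* are also expressed by macrophages, whose markers are described further on.

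The most abundant genes called higher were *Txnip*, *Ddit4*, *Nfe2l1*, *P4ha1* and *Atf4*. *Txnip*, which restrains glucose uptake and binds thioredoxin, rose from 848 and 861 CPM to 1773 and 1757 CPM, a log2 fold change of 1.05. *Ddit4*, an inhibitor of mTORC1, rose from 678 and 697 CPM to 1205 and 1220 CPM. The most abundant genes called lower were *Mt2*, *Aldh1a1*, *Lars2*, *Mt1* and *Anxa1*. The metallothionein gene *Mt1* fell from 1445 and 1436 CPM to 726 and 719 CPM, and *Mt2* from 2465 and 2542 CPM to 1514 and 1424 CPM. *Aldh1a1*, which makes retinoic acid and marks some progenitor cells, fell from 2054 and 2052 CPM to 1056 and 1058 CPM, a log2 fold change of -0.96. *Anxa1*, an inhibitor of inflammation, had a log2 fold change of -0.64. The 2 samples of each genotype lay close together for all these genes, and the genotypes did not overlap, as for 74.0% of all genes tested.

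**Figure D2:**
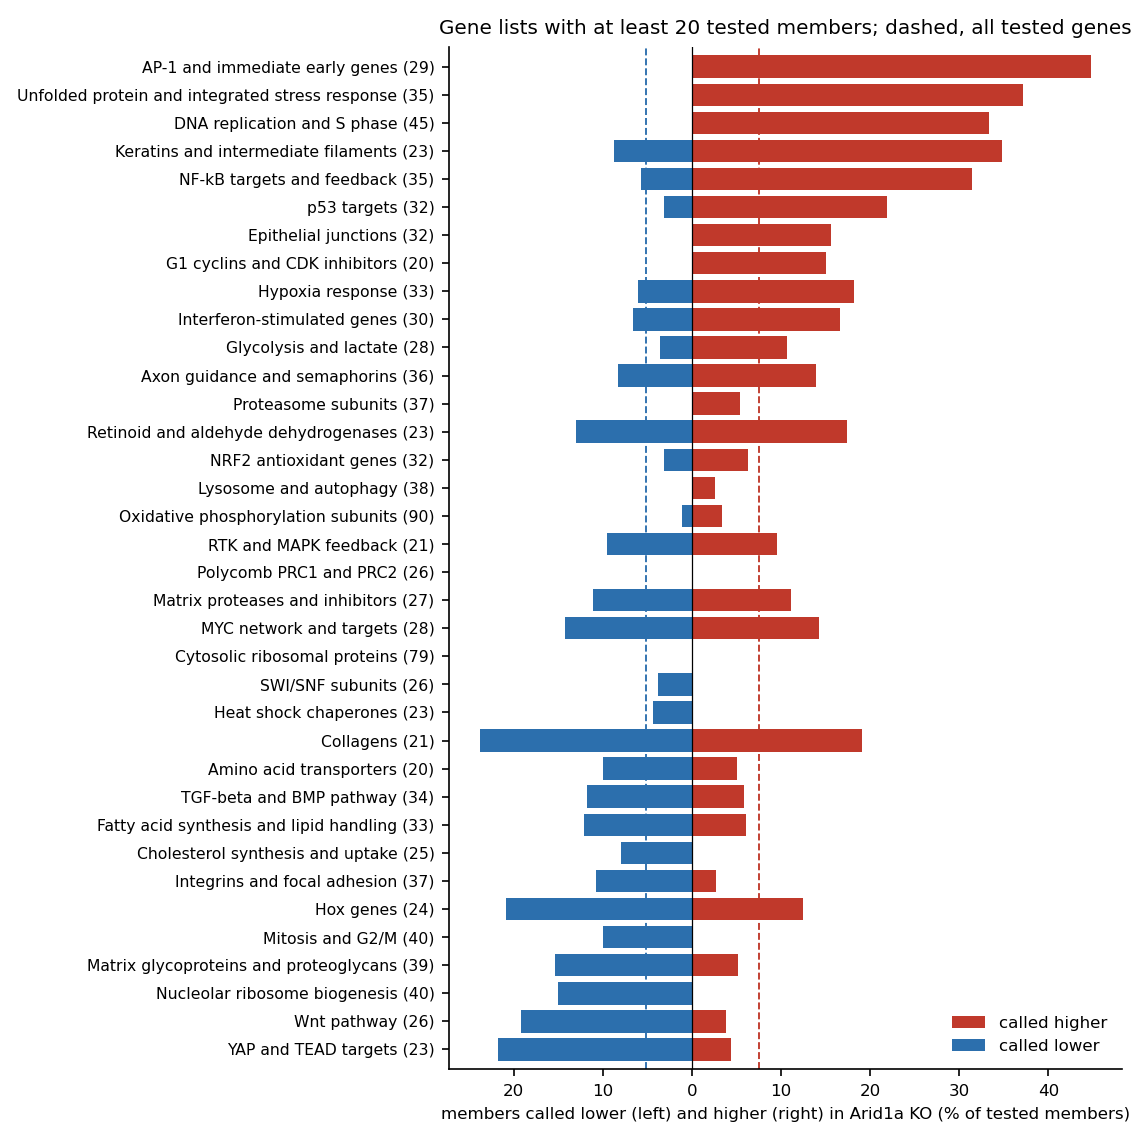
Bars give, for each gene list with at least 20 tested members (number in parentheses), the percentage of members called lower (left) and higher (right) in *Arid1a* KO tumors, and dashed lines mark 5.16% and 7.48%, the shares of all tested genes. Immediate early, stress response and DNA replication genes reach furthest to the right with no member called lower, and YAP and TEAD, Wnt and nucleolar genes have the largest excess of members called lower.

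The integrated stress response slows protein synthesis when amino acids run short or unfolded proteins build up, through phosphorylated eIF2α and the transcription factor ATF4. Of 35 genes of this and the unfolded protein response that were tested, 13 were higher in KO tumors and none was lower. Over all genes tested 7.48% were higher and 5.16% lower, and each list count with vehicle below is to be read beside these shares. The median log2 fold change of the 35 genes was 0.35, beside 0.00 for all genes tested. *Atf4* itself rose from 246 and 239 CPM to 496 and 488 CPM (log2 fold change 1.02, standard error 0.024, adjusted p = 1.85e-47). *Trib3*, a pseudokinase induced by ATF4, had 45.4 and 44.4 CPM in WT and 162 and 164 CPM in KO tumors (log2 fold change 1.86). *Ddit3*, for the pro-apoptotic factor CHOP, had 33.5 and 38.2 CPM in WT and 104 and 106 CPM in KO tumors. These genes, like the changed list members named below, were picked as called, so the gap between KO and WT samples follows from that choice. *Ppp1r15a*, for the phosphatase subunit GADD34 that ends the response, had 28.4 and 25.5 CPM against 82.4 and 84.5 CPM, and *Chac1*, which degrades glutathione, had 29.6 and 31.4 CPM against 83.2 CPM in both KO samples. The other members that rose were *Nupr1*, *Herpud1*, *Asns* for asparagine synthetase, *Psph* of serine synthesis, *Ddit4*, *Atf6*, *Sesn2* and *Atf5*, with log2 fold changes between 0.69 and 1.06. *Hsp90b1*, a chaperone gene and the most abundant member, was not called, with 1243 and 1226 CPM in WT and 1139 and 1152 CPM in KO tumors. In tumors with JSH-23, which share no sample with this comparison, none of the 35 genes was called and the median was 0.14. Over all genes 3.74% were higher and 4.97% lower with JSH-23, the shares for the list counts there.

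The promoters of 5 of the genes that rose are shown because each holds TGATGNAA, the letters of the element that C/EBP and ATF factors, ATF4 among them, are known to bind. They are the 250 bases upstream of the start site in RefSeq's annotation of GRCm38.p6, read 5′ to 3′ along the gene, with the element in capitals (as TTGCATCA where it lies on the other strand).
Asns (chr6:7693210-7693459, minus strand): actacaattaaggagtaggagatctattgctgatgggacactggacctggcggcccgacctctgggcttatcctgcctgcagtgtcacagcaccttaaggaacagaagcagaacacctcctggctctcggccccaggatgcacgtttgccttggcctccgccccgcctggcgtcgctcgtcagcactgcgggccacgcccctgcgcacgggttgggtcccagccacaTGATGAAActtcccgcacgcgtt
Chac1 (chr2:119350992-119351241, plus strand): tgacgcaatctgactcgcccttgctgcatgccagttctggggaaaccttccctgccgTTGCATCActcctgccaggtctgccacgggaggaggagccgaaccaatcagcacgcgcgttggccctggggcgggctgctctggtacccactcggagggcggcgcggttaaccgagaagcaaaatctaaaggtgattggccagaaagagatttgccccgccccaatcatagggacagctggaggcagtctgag
Nupr1 (chr7:126625471-126625720, minus strand): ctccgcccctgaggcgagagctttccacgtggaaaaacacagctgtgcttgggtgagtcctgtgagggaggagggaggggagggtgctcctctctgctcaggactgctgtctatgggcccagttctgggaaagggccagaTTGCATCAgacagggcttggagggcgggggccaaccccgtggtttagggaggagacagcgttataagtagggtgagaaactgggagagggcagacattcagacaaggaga
Herpud1 (chr8:94386179-94386428, plus strand): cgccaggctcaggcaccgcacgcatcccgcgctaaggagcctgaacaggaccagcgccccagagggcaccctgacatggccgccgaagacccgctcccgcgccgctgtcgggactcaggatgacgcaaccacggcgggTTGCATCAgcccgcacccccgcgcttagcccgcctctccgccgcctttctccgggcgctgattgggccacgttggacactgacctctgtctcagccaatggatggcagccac
Atf3 (chr1:191183334-191183583, minus strand): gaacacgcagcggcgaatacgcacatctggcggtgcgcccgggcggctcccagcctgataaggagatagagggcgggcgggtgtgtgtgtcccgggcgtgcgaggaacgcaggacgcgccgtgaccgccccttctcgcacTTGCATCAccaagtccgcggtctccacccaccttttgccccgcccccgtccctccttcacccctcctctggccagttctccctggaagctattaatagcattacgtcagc

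The element ended 15 bases before the start site in *Asns* and between 102 and 104 bases before it in *Nupr1*, *Herpud1* and *Atf3*. *Atf3* belongs to the immediate early list and is described there. In *Chac1* the element ended 185 bases before the start site. The search covered both strands from 250 bases before to 50 bases after the start site for the 11001 tested genes with an entry (79.0%). The element was in 5 of 12 promoters of stress response genes that rose (41.7%), in 6 of 32 of all tested members (18.8%), and in 243 of 11001 promoters of all tested genes (2.21%). The 5 were those of *Asns*, *Chac1*, *Nupr1*, *Herpud1* and *Trib3*, and the *Trib3* promoter is not printed. Among all genes called, 3.59% of promoters of higher genes and 1.09% of those of lower genes held it. Other motifs were searched too, and 5 of the 12 promoters (41.7%) also held the antioxidant element TGACNNNGC. That element was in 10 of 32 promoters of all tested members and in 14.6% of those of all tested genes. The hypoxia element ACGTGC was in 3 of the 12, beside 8.24% of promoters of all tested genes. A share of 41.7% was thus not particular to TGATGNAA. The motif TGATGNAA was chosen once the changes were known, and a match describes the sequence and not binding.

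Immediate early genes are switched on within minutes by growth factors or stress, and many encode AP-1 factors. In KO tumors 13 of 29 such genes tested were higher and none was lower, with a median log2 fold change of 0.52. *Fos* had 5.88 and 5.94 CPM in WT and 32.8 and 34.6 CPM in KO tumors (log2 fold change 2.51, standard error 0.11, adjusted p = 1.05e-30). *Egr1*, a zinc finger factor induced by serum, had 4.93 and 5.47 CPM in WT and 23.3 and 26.2 CPM in KO tumors. *Dusp1*, a phosphatase that shuts off p38 and JNK, had 24.4 and 22.6 CPM in WT and 100 and 96.1 CPM in KO tumors. The KO samples were 3 or more times the WT samples for each. *Atf3* (1.602 on the log2 scale), *Btg2* (1.38), *Egr2* (1.28), *Ier3*, *Klf10*, *Ier2*, *Jun*, *Zfp36*, *Maff* and *Klf4* rose as well. *Jund*, the most abundant member, had 1580 and 1666 CPM in WT and 1737 and 1774 CPM in KO tumors. With JSH-23, 4 of the 29 were higher and 1 was lower. The AP-1 element TGANTCA was in 9.28% of promoters of the higher genes, 9.06% of the lower genes and 5.52% of all tested genes, so its share was nearly the same for both directions.

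**Figure D3:**
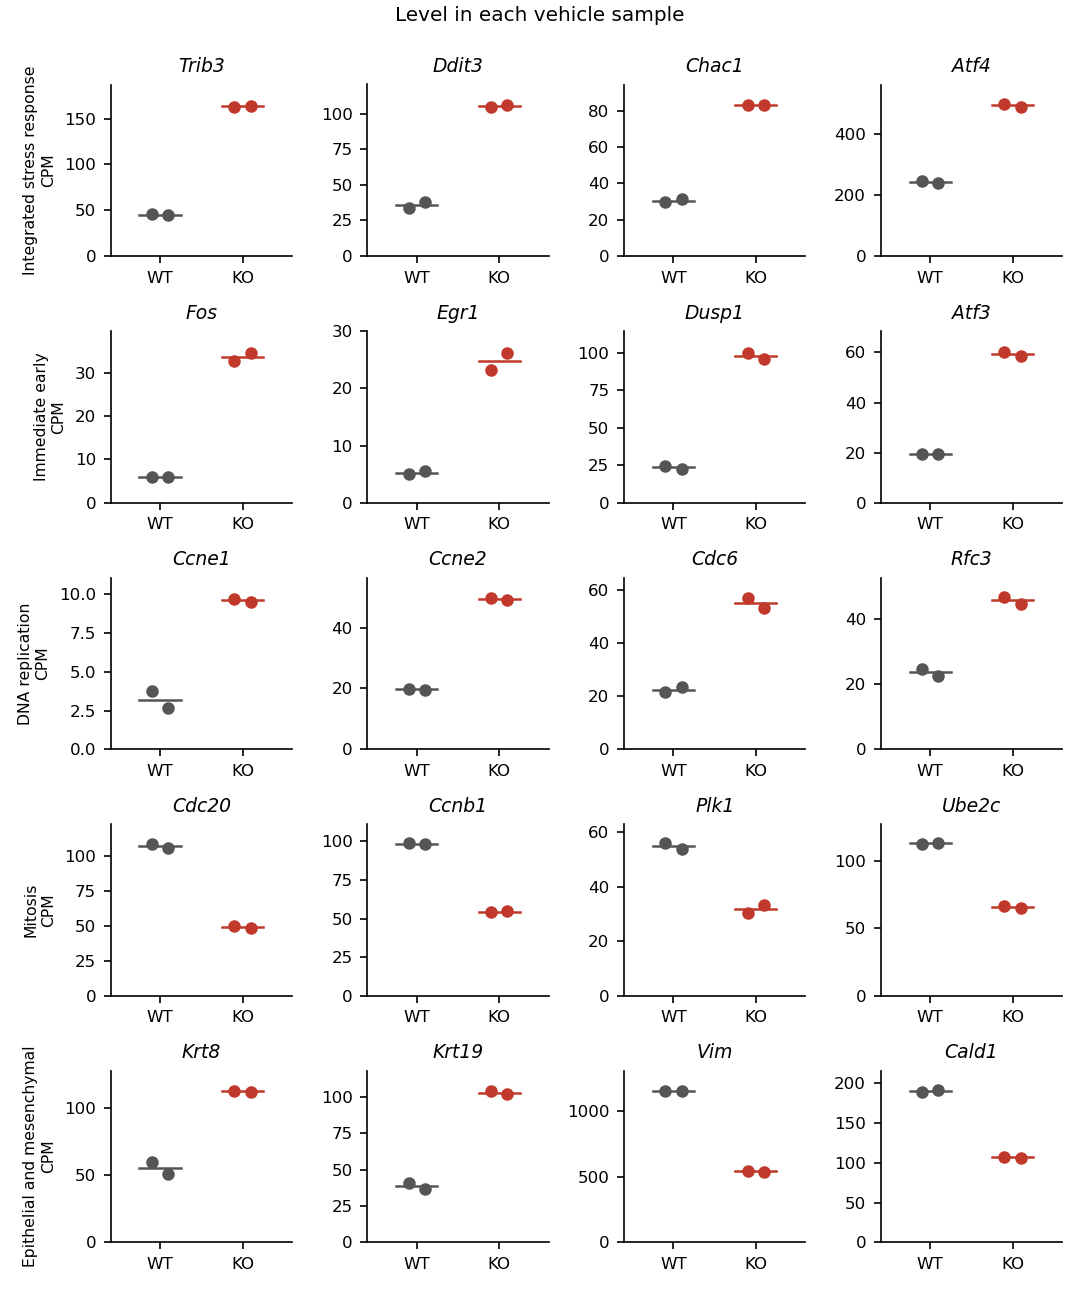
Points are single vehicle samples in CPM and short lines are the mean of the 2 samples of a genotype, with 1 row of genes for each group and every axis starting at 0. The 20 genes were drawn because they were called, so their separation follows from that choice, and stress, immediate early and replication genes are higher in KO tumors, and mitosis genes, *Vim* and *Cald1* are lower.

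Of 45 replication and S phase genes 15 were higher and none was lower, with a median log2 fold change of 0.50. *Ccne1* and *Ccne2* encode cyclin E, which drives entry into S phase. *Ccne1* had 3.74 and 2.65 CPM in WT and 9.72 and 9.54 CPM in KO tumors (log2 fold change 1.59, adjusted p = 4.75e-13). *Ccne2* had 19.8 and 19.6 CPM in WT and 49.8 and 49.0 CPM in KO tumors. Both KO samples of each were more than 2 times both WT samples. *Cdc6*, which loads the MCM helicase, had 21.5 and 23.4 CPM against 56.9 and 53.2 CPM. *Rfc3* of the clamp loader had a log2 fold change of 0.95, and *Cdc45*, *Gins3*, *Slbp*, *Rpa2*, *Fen1*, *Mcm4*, *E2f2*, *Mcm10*, *Pole*, *Pcna* and *Rfc5* rose by between 0.65 and 0.88. With JSH-23, 22 of the 45 were higher and the median was 0.58, although *Ccne1* (-0.20) and *Ccne2* (0.16) were not called there.

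Of 40 mitosis and G2/M genes none was higher and 4 were lower. *Cdc20*, an activator of the anaphase-promoting complex, had 109 and 106 CPM in WT and 49.7 and 48.8 CPM in KO tumors (log2 fold change -1.13, standard error 0.044, adjusted p = 8.53e-34). *Ccnb1*, for cyclin B1, had 98.6 and 97.9 CPM against 54.1 and 54.6 CPM, and *Plk1* and *Ube2c* had log2 fold changes of -0.78 and -0.77. *Top2a*, the most abundant member, had 723 and 740 CPM in WT and 708 CPM in both KO samples, and the median of the list was -0.06. None of these 4 genes was called with JSH-23, where their log2 fold changes were between -0.09 and 0.12 and the median of the list was 0.27. Of 32 p53 targets 7 were higher and 1, *Psrc1* (-0.71), was lower. *Eda2r*, a death receptor gene, had 71.4 and 73.7 CPM in WT and 184 and 185 CPM in KO tumors, and *Gadd45a* (1.24 on the log2 scale), *Plk3* (1.18) and the cell cycle inhibitor gene *Cdkn1a* (0.68) rose too.

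The line carries a *Myc* transgene, and reads of the transgene and of the gene cannot be told apart where their sequences are the same. *Myc* had 17.2 and 16.5 CPM in WT and 55.4 and 54.6 CPM in KO tumors (log2 fold change 1.70, standard error 0.076, adjusted p = 9.44e-31). *Tfrc*, the transferrin receptor gene, rose from 116 CPM in both WT samples to 333 and 324 CPM, and *Odc1* of polyamine synthesis had a log2 fold change of 0.95. The MYC list as a whole was split, with 4 of 28 higher and 4 lower. Of 40 genes of nucleolar ribosome assembly none was higher and 6 were lower, with a median of -0.28. These were *Heatr1* (-0.86), *Dkc1* (-0.79), *Nop16* (-0.78), *Polr1b* (-0.69), *Rrp9* (-0.65) and *Nop2* (-0.59). None of 79 genes for cytosolic ribosomal proteins was called, and their median was 0.07.

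Several mesenchymal genes fell and several epithelial genes rose. *Vim*, for vimentin, had 1147 and 1152 CPM in WT and 541 and 537 CPM in KO tumors (log2 fold change -1.09, standard error 0.016, adjusted p = 2.94e-59). *Cald1*, for caldesmon, had 189 and 192 CPM against 108 and 106 CPM, and *Zeb2*, a repressor of epithelial genes, had a log2 fold change of -0.63. In all, 6 of 18 mesenchymal genes were lower and 1 was higher, *Snai1*, with 0.30 and 0.18 CPM in WT and 0.44 and 1.11 CPM in KO tumors. *Tgfbi*, *Mmp14* and *Tnc* (at least 3.87-fold lower), the other members that fell, had under 2 CPM in every sample, and *Mmp14* was not called with DESeq2, with limma, or without any 1 of WT replicate 1, KO replicate 1 or KO replicate 2. *Fn1*, the gene with the most counts in every sample, had a log2 fold change of -0.12.

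Of 23 genes for keratins and other intermediate filaments 8 were higher and 2, *Krt23* and *Vim*, were lower. *Krt19* had 41.0 and 36.7 CPM in WT and 104 and 102 CPM in KO tumors, and *Krt8* had 59.7 and 51.1 CPM against 113 and 112 CPM. The KO samples stood apart from the WT samples for both, and *Krt15* (0.99 on the log2 scale), *Krt16* (0.96), *Krt7* (0.66) and, at under 1 CPM, *Prph* rose too. Among 32 epithelial junction genes 5 were higher and none was lower. Among them were the epithelial factor genes *Grhl1* (2.01) and *Elf3* (1.41), the protease gene *St14* (1.92) and the polarity gene *Crb3* (1.06). The median of the 32 was 0.12, but -0.06 over those of at least 10 CPM. *Foxa1*, a pioneer factor of prostate epithelium, went the other way, with 220 and 224 CPM in WT and 149 and 155 CPM in KO tumors, short of 1.5-fold.

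*Nefl* and *Nefm*, neighbouring genes for neurofilament subunits, had no count in either WT sample. *Nefl* had 52 and 57 counts and *Nefm* 59 and 41 counts in the KO samples, at least 15.7-fold and 14.6-fold above the level of 3 counts per library. With JSH-23 both genes were at 0 in WT replicate 1 and at 51 and 60 counts in WT replicate 2, so these 2 genes differed between WT samples there as much as between genotypes here. *Calca*, for the peptide CGRP, rose from 0.36 and 0.47 CPM to 4.03 and 5.23 CPM (log2 fold change 3.47). In all, 4 of 11 neuronal genes tested were higher, and *Nefl* and *Nefm* are counted both there and among the intermediate filaments. Over the 3 neuronal genes of at least 10 CPM none was called and the median was -0.21. The summed level of the 11 was 625 and 616 CPM in WT and 565 and 554 CPM in KO tumors.

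Of 23 YAP and TEAD targets, which respond to cell contact and stretch, 5 were lower and 1 was higher. *Axl*, a receptor kinase gene, fell from 332 and 327 CPM to 174 and 181 CPM (log2 fold change -0.89, standard error 0.027, adjusted p = 8.47e-41). *Ccn2*, for connective tissue growth factor, fell from 53.7 and 51.6 CPM to 24.7 and 25.6 CPM, and *Ajuba* (-0.89), *Amotl2* (-0.77) and *Arhgef17* (-0.70) fell as well. *F3*, for tissue factor, rose from 127 and 126 CPM to 277 and 273 CPM. *Ccn2* was called in the other direction with JSH-23, with a log2 fold change of 0.89.

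Among Wnt genes 5 of 26 were lower and 1 was higher. The ligand gene *Wnt5a* fell from 95.7 and 91.6 CPM to 40.2 and 41.0 CPM, and *Wnt4* from 167 and 165 CPM to 94.3 and 94.2 CPM, while the receptor gene *Fzd4* rose (0.77 on the log2 scale). Notch genes were split. *Notch1* rose from 29.6 and 27.5 CPM to 58.9 and 51.5 CPM and *Notch4* fell from 489 and 504 CPM to 300 and 304 CPM. *Hes1*, the classical Notch target, rose from 0.30 and 0.24 CPM to 3.26 and 2.71 CPM. Of 24 Hox genes, which set position along the body, 3 were higher and 5 were lower, among them *Hoxc6* (1.09), *Hoxa7* (-0.99) and *Hoxd4* (-1.31).

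Of 33 genes of fatty acid synthesis and lipid handling 2 were higher (6.06%) and 4 were lower (12.1%), beside 7.48% and 5.16% over all genes. *Fasn*, for fatty acid synthase, fell from 366 and 368 CPM to 242 and 232 CPM (log2 fold change -0.64), and *Elovl6* and *Fabp5* had log2 fold changes of -0.73 and -0.68. *Lpl*, for lipoprotein lipase, had the largest change of the list, a rise of 1.81 on the log2 scale from 0 and 1.12 CPM to 1.66 and 2.28 CPM, and was not called with DESeq2, with limma, without WT replicate 1 or without KO replicate 2. Among 13 carbonic anhydrases and pH transporters, *Car12* (4.02) and *Car6* (3.91) were higher from low levels. *Slc16a3*, the lactate exporter MCT4, had 1.96 and 2.12 CPM in WT and 8.95 and 9.25 CPM in KO tumors. Of 33 hypoxia genes 6 were higher and 2 lower, and oxidative phosphorylation genes had 3 of 90 higher and 1 lower. Aldehyde dehydrogenases were split, with *Aldh1a3* (1.34) and the mitochondrial folate enzyme gene *Aldh1l2* (1.099) higher and *Aldh1a1* lower.

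Genes known from macrophages fell from low levels. *Adgre1*, for F4/80, had 17 and 19 counts in WT and 0 in both KO samples, and *Itgam*, for CD11b, had 10 and 15 counts in WT and 0 in both KO samples. *Cybb*, a phagocyte oxidase gene outside the marker list, had 22 counts in both WT samples and 0 in both KO samples, at least 8.12-fold lower. *Lyz2* fell from 164 and 165 counts to 54 and 71 counts. Of 7 macrophage markers tested 5 were lower and 1, *Cd68*, was higher, and the summed level of the 10 markers of the list was 31.6 to 34.0 CPM in WT and 32.4 to 35.8 CPM in KO tumors. With DESeq2, 2 of them were lower. Fewer cells of a type and less RNA per cell cannot be told apart in such samples. The same samples had less of *Il1b*, *Thbs1*, *Tnc*, *Ctss* and *Ifit3*, each under 5 CPM in WT, and the part of macrophage RNA in these falls was not tested. With JSH-23, WT replicate 2 also had 1 count each of *Adgre1* and *Cybb*, where WT replicate 1 had 17 and 21. Neutrophil and T and NK cell markers summed to at most 0.65 CPM and 0.20 CPM in any sample, and erythroid markers to 5.34 to 8.21 CPM in WT and 12.9 to 14.01 CPM in KO tumors.

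Some inflammatory genes rose. Of 35 NF-κB targets 11 were higher and 2, *Il1b* and *Saa3*, were lower, and with DESeq2 the counts were 6 and 1. *Cxcl2*, a neutrophil chemokine gene, had 13.4 and 11.7 CPM in WT and 61.1 and 62.9 CPM in KO tumors. *Nfkbia*, which NF-κB induces as its own inhibitor, had 349 and 351 CPM in WT and 360 and 352 CPM in KO tumors. Among 15 checkpoint and T cell ligand genes 5 were higher, among them *Arg1* (1.505 on the log2 scale), *Ulbp1* (0.89) and *Ido1* (0.76), and 1 was lower.

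The remaining lists held few called genes or were split. Of 21 collagen genes 4 were higher and 5 lower, and of 39 matrix glycoprotein and proteoglycan genes 2 were higher and 6 lower, *Vcan* (-0.89) and *Sdc3* among them. *Flna*, for the actin crosslinker filamin A, fell from 1061 CPM in both WT samples to 692 and 681 CPM, and 4 of 37 integrin and focal adhesion genes were lower in all. Of 30 interferon-stimulated genes 5 were higher and 2 lower, and the immunoproteasome genes *Psmb8* (1.23) and *Psmb9* (0.94) were the 2 of 19 MHC class I genes that rose. None of 25 cholesterol genes was higher, 2 of 37 proteasome and 1 of 38 lysosome genes were higher, and 1 of 23 heat shock genes was lower.

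With the spread between samples set to 0.2, 397 of all 13921 genes tested were higher and 217 lower. The counts called higher were then 6 of 35 for the stress response, 8 of 29 for immediate early and 4 of 45 for replication genes. The YAP list had 2 of 23 lower, the mitosis list 1 of 40 and the nucleolar list none of 40. The keratin list had 7 of 23 higher and 2 lower.

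The changes were spread unevenly over the genome. On chromosome 13 the median log2 fold change of 520 tested genes was -0.27, a level of 0.83 of WT, and 76.9% of them were below 0. There 80 genes were lower (15.4%) and 13 higher (2.50%), beside 5.16% and 7.48% over all genes. All 10 of its windows of 10 Mb with at least 20 genes had a median between -0.37 and -0.20, and they were the 10 lowest of 213 windows in the genome. It was as large for genes of at least 10 CPM (-0.29), and was -0.28 in the tumors with JSH-23. Chromosome 11 had a median of 0.11 over 1222 genes, with 11.5% higher and all 12 windows above 0, and 0.11 with JSH-23. The other nuclear chromosomes had medians between -0.06 and 0.05. *Ccnb1*, *Heatr1*, *Nop16*, *Vcan*, *Fgd3* and the mesenchymal gene *Tgfbi* lie on chromosome 13. With chromosome 13 left out, 1028 genes were higher and 639 lower. DNA copy number was not measured.

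**Figure D4:**
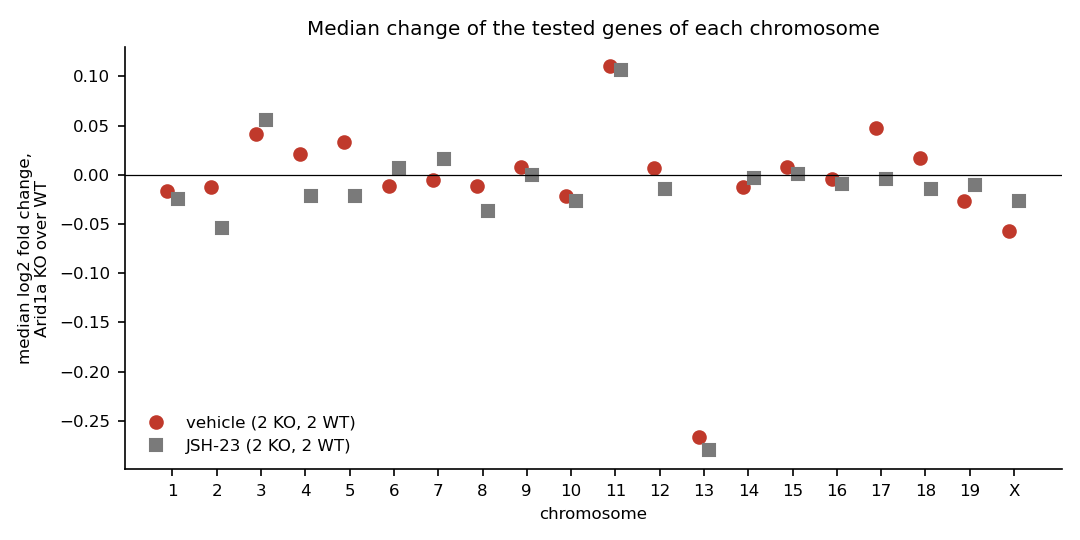
Points are the median log2 fold change of *Arid1a* KO over WT for the tested genes of each chromosome, with circles for vehicle and squares for JSH-23 (2 KO and 2 WT samples each). Chromosome 13 lies at -0.27 and -0.28 and chromosome 11 at 0.11 in both, and the other nuclear chromosomes lie between -0.06 and 0.06.

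Transfer RNA genes of the mitochondrial genome fell together with vehicle. Of 12 tested, 7 were lower and none was higher, with a median log2 fold change of -1.13, and their summed level was 102 and 104 CPM in WT and 65.2 and 62.0 CPM in KO tumors. With JSH-23 the median was 0.17. *Lars2*, whose product charges mitochondrial leucine tRNA, fell from 1480 and 1458 CPM to 925 and 912 CPM. Unlike the tRNA median, its log2 fold change stayed below 0 with JSH-23, at -0.41. A link between the 2 falls was not tested.

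In the tumors with JSH-23 the genotypes were compared in 4 other samples, under another treatment. The median log2 fold change of the higher genes was 0.98 with vehicle and 0.34 with JSH-23. For the lower genes it was -0.86 and -0.40. Of the 1041 higher genes 248 (23.8%) were also higher there, and these were 47.7% of the 520 genes (3.74%) called higher with JSH-23. In the other direction, 22 of the 1041 were lower. Of the 719 lower genes 214 (29.8%) were also lower, 30.9% of the 692 (4.97%) called lower with JSH-23, and 9 were higher. The genotype difference itself differed between the treatments, at an adjusted p under 0.05 of the interaction with no limit on fold, for 5346 genes (38.4%). *Arid1a* (-0.66), *Sdc3* (-3.83), *Slfn2* (-3.24), *Lrp1* (-1.77), *Avil* (2.52), *Plet1* (2.27) and *F5* (2.59) had log2 fold changes in the same direction with JSH-23. *Txnip* (-0.07), *Aldh1a1* (0.01) and *Soat2* (0.29) were not called there. WT replicate 2 with JSH-23 differed over 4-fold from its partner in 13 genes, and without it the shared counts were 231 and 223.

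**Figure D5:**
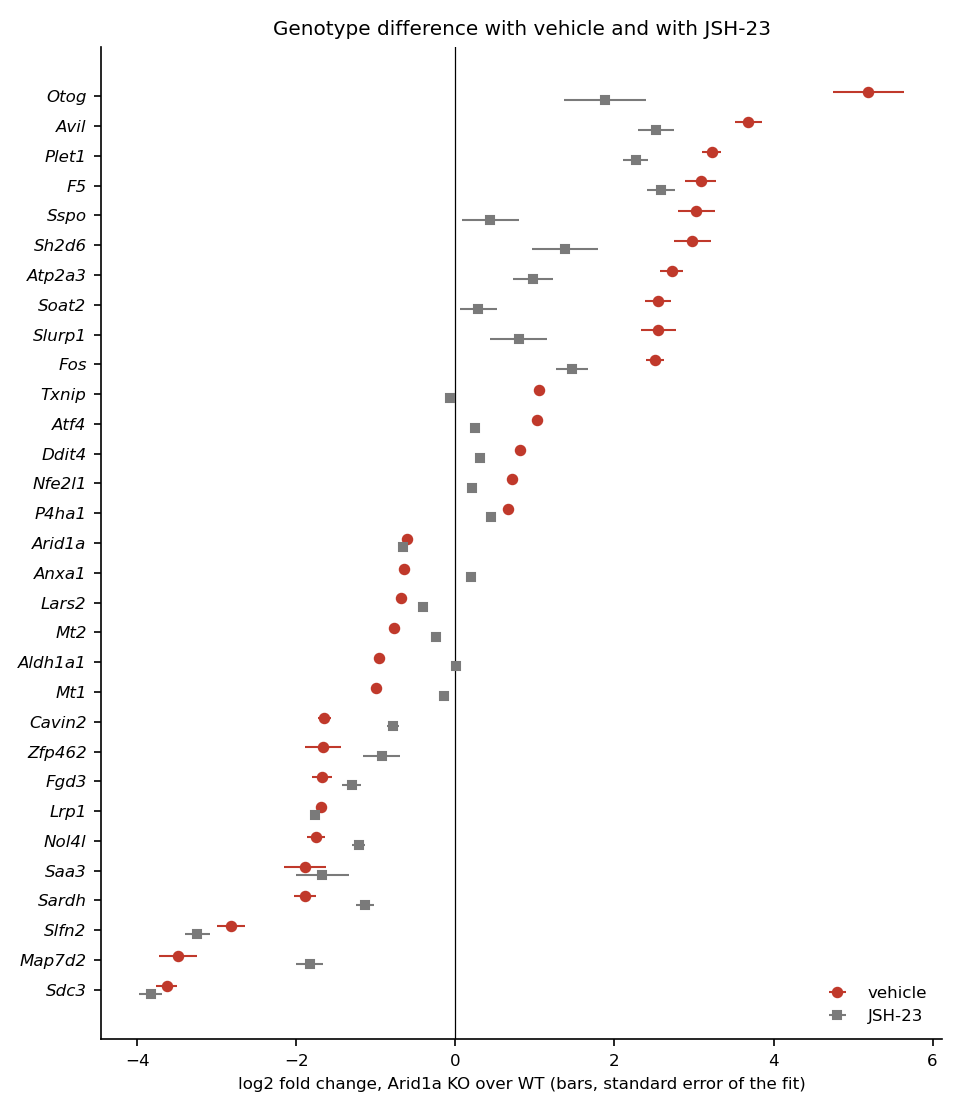
Log2 fold changes of *Arid1a* KO over WT with their standard errors are drawn for *Arid1a* and the leading and most abundant called genes, with circles for vehicle and squares for JSH-23. *Sdc3*, *Lrp1* and *Arid1a* have nearly the same value in both, while *Txnip*, *Aldh1a1* and *Mt1* lie near 0 with JSH-23.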

How the data were processed

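RNA from tumor cells described as sorted for EpCAM and against CD45, 8 samples with 2 per group, was analysed. *Epcam* had at most 4 counts in any sample. Groups were taken from the labels. The authors deposited whole-number read counts per gene for 39089 genes, without normalization, and TPM values, whose calculation is not described. The submitters' processing notes name HISAT2, HTSeq, DESeq2 and build mm10, while the paper's methods name TopHat2 as aligner. Reads that fit near-identical genes may be placed on either copy.

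Counts were filtered with filterByExpr in edgeR 4.0.16 (R 4.3.3), leaving 13921 genes, scaled by TMM (factors 0.949 to 1.03) and fitted over all 8 samples with a quasi-likelihood model of group means. P-values were adjusted by Benjamini-Hochberg over all genes tested, and a call needed an adjusted p under 0.05 and 1.5-fold. CPM values used the TMM-scaled library sizes, and summed marker levels the total counts. Depth limits and bounds at 3 counts cover counting error only. On simulated counts the fit was tested before use.

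Named were *Arid1a*, the 10 largest rises and falls with non-overlapping samples and at least 5 CPM, the 5 most abundant called genes per direction and, for each of 56 gene lists, up to 4 called members of at least 1 CPM and the most abundant member. Other called members of a list were named after their values were seen, to complete its count. The comparison, members and lists were chosen with earlier results of these data known. Lists were described by counts and medians, without a set test. Alternatives were DESeq2 1.42.0, limma 3.58.1 on log2(TPM + 1) and log2(TPM + 0.1), other scalings and filters, set variation, a replicate block and leaving out each sample. Promoters were from RefSeq (GRCm38.p6). Some genes are not reported here.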

Additional observations from a re-analysis of the deposited data

Results flagged for a closer look

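For 10 of the 31 leading, most abundant and targeted genes, the genotype difference with JSH-23 differed from that with vehicle by more than 1.5-fold in edgeR's test against that fold, at an adjusted p under 0.05 over all genes. The interaction without a fold limit passed for 23 of the 31, and 224 of all genes tested passed the test against 1.5-fold.

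Among the genes that rose with vehicle, the difference on the log2 scale (JSH-23 minus vehicle) was -3.31 for *Otog* (adjusted p = 0.0462), -2.59 for *Sspo*, -2.26 for *Soat2* and -1.75 for *Atp2a3*. It was -1.11 for *Txnip* (adjusted p = 3.88e-30) and -0.776 for *Atf4* (adjusted p = 5.96e-06). All 6 had smaller rises or none with JSH-23.

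Among the genes that fell with vehicle, the difference was 1.66 for *Map7d2* (adjusted p = 0.0173), 0.968 for *Aldh1a1* (adjusted p = 3.14e-28), 0.85 for *Mt1* and 0.838 for *Anxa1*. *Map7d2* still fell with JSH-23, by less, and the other 3 were not called there.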

How the results depend on the processing

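The counts of genes higher and lower in KO tumors moved by over 1.5 times under 3 settings. With at least 10 CPM they were 371 and 317 (fewer genes are tested there), with a coefficient of variation of 0.2 they were 397 and 217, and with edgeR's test against 1.5-fold they were 411 and 271. Genes called in the same direction with JSH-23 numbered 86 higher and 82 lower with at least 10 CPM, 68 and 59 with the variation at 0.2, and 101 higher with limma on log2(TPM + 1). *Arid1a* kept its log2 fold change of -0.6036 with the variation at 0.2 but was not called (adjusted p = 0.319). It also missed 1.5-fold, with an adjusted p under 0.05, at -0.5767 with library sizes alone, -0.5826 with at least 10 CPM and -0.5805 with limma on log2(TPM + 1). The other settings gave 767 to 1147 higher and 510 to 782 lower genes, DESeq2 771 and 580. Leaving out 1 sample gave 895 to 965 higher and 671 to 685 lower genes, and -0.632 to -0.5805 for *Arid1a*, short of 1.5-fold without WT replicate 2 or KO replicate 1. The low *Acta2*, not called, was -1.031 without WT replicate 1 and reversed to 3.695 without WT replicate 2. A replicate block gave 1034 and 716 genes, 1032 and 709 of them shared. Same-numbered vehicle samples did not deviate together (r = -0.0408 across genes), so the numbers were not taken as pairs. Leaving out chromosome 13 (1028 and 639), subtracting each chromosome's median (1017 and 695) and leaving out WT replicate 2 with JSH-23 (231 and 223 shared) were chosen after seeing the data. Depth limits genes near 3 counts.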
